A study of Mus musculus with 48 samples.

Results

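Regulatory T cells (Tregs) were compared with conventional CD4 T cells (Tcons) of the same mouse in the 12 IL-2-treated mice from which both RNA-seq libraries were made. This comparison used 24 of the 48 libraries of the study, a Treg and a Tcon library per mouse, and its members were chosen by the sample labels alone. All mice were female C57BL/6, an inbred strain, 8 to 12 weeks old, and all received 2 doses of 500 µg of antibody intraperitoneally, the second on day 0. The antibody was an isotype control in 6 mice and an MHC II blocking antibody in 6. On day 0 each mouse received a single subcutaneous injection of 25 µg of human WT IL-2, the H16R mutein or the 3x mutein, all fused to Fc, and spleens were taken on day 4. Each molecule was given to 4 mice, 2 with isotype antibody and 2 with MHC II block. The 4 PBS mice with both libraries served as the untreated background. Tregs were the fraction bound in a magnetic CD25 selection of CD4 T cells, and Tcons were the CD25-negative flow-through, so the sort itself used the protein made from Il2ra, and the Tcons may hold Tregs with little CD25.

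Tregs restrain immune responses and depend on the transcription factor Foxp3. They carry the high-affinity IL-2 receptor, whose alpha chain CD25 captures IL-2 and whose beta and gamma chains signal through JAK1, JAK3 and STAT5. Tcons make IL-2 and other cytokines when their T cell receptor (TCR) sees peptide on MHC II, and resting Tcons have little CD25. H16R carries a single amino acid substitution in IL-2 and 3x carries several, and both were made as attenuated forms of WT IL-2.

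Total expected counts lay between 26.7 and 48.9 M in the Treg libraries and between 31.3 and 52.0 M in the Tcon libraries. Values below are CPM, counts scaled to the same library total after adjustment by TMM, a normalization that balances the bulk of genes between libraries, and n is the number of mice. The labels were checked with Foxp3 (chrX:7573644-7595245, plus strand, exons and introns of the gene, GRCm38). Foxp3 was at 699.5 to 1189 CPM in Tregs (median 1065, n = 12) and at 47.2 to 183 CPM in Tcons (median 96.8, n = 12), without overlap. Cd4 was at 559 to 871 CPM in Tregs and at 453 to 848 CPM in Tcons, and the medians of Cd8a, the marker of the other main T cell class, were 1.36 and 6.89 CPM. A pair of mice stood apart. In isotype WT IL-2 mouse 2 the Tcon library held the most Foxp3 of all Tcon libraries, 183 CPM, together with 499 CPM of Ikzf2, which encodes the Treg factor Helios and stayed at or below 238 CPM in the other Tcons. In MHC II block WT IL-2 mouse 1 the Treg library held 83.8 CPM of the B cell gene Ms4a1, which encodes CD20, against at most 11.6 CPM in the other 11 Treg libraries. Both mice belong to the WT IL-2 group, and values without them are given below where a call or its size depended on them.

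The first question was how far Tregs and Tcons of one mouse differed under IL-2. Of 12684 protein-coding genes tested, 5084 (40.1%) were higher and 5351 (42.2%) lower in Tregs over the 12 pairs (edgeR's quasi-likelihood test with the mouse as block, Benjamini-Hochberg adjusted p under 0.1). Most of these differences were small: 2139 genes differed by at least 1 on the log2 scale. In 5094 of the called genes all 12 mice had the same sign, 2609 higher and 2485 lower in Tregs. With WT IL-2 3986 genes (31.4%) were higher and 4464 (35.2%) lower in Tregs. With H16R the numbers were 4532 (35.7%) and 4697 (37%), and with 3x 4583 (36.1%) and 4692 (37%). The higher genes made up 48.7% of the called ones over the 12 pairs with TMM, 39.1% with total counts without TMM and 39.3% with limma on FPKM. For WT IL-2 these shares were 47.2%, 39.1% and 39.4%, for H16R 49.1%, 37.7% and 38.2%, and for 3x 49.4%, 40.0% and 40.3%. In all, 2992 genes were higher and 3173 lower in Tregs with each of the 3 molecules, and 1332 were called with none. Because so many genes passed, a list of genes is described by its count and its median log2 fold change (log2FC, Treg minus Tcon), beside a median of −0.01 over all genes tested.

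The genes that define Tregs were higher in Tregs with every molecule. All 25 Treg core genes tested were called higher in Tregs under each molecule, beside 31.4%, 35.7% and 36.1% of all genes with WT IL-2, H16R and 3x. The median log2FC of the list was 2.32 over the 12 pairs, 2.12 for WT IL-2, 2.44 for H16R and 2.56 for 3x. Foxp3 was higher by 3.39 ± 0.07 (SE, n = 12). Il2ra (chr2:11642807-11693193, plus strand, exons and introns of the gene), whose product was the basis of the sort, was at 312 to 853 CPM in Tregs and at 32.4 to 72.5 CPM in Tcons. Among the other members, Ikzf2 was higher by 2.31 ± 0.09, Ctla4, an inhibitory receptor that removes costimulatory ligands from antigen-presenting cells, by 2.79 ± 0.10, and Itgae, the CD103 integrin chain, by 2.89 ± 0.04. The 10 genes with the largest rise among those above a mean of 5 CPM included 4 members of the list, namely Penk, Tnfrsf9, Foxp3 and Il2ra. Penk, the precursor of enkephalin peptides, led with 4.11 ± 0.09, from 1.45 to 6.09 CPM in Tcons to 29.6 to 85.2 CPM in Tregs. Also among these 10 were Tnfrsf8, which encodes CD30 (3.46 ± 0.09), Neb, the giant muscle protein nebulin (3.48 ± 0.09), Gbp2b, an interferon-inducible GTPase (3.80 ± 0.05), Frmd5 (3.73 ± 0.07), Gpld1, a phospholipase that releases GPI-anchored proteins (3.68 ± 0.11), and Dnah7a, an axonemal dynein chain (3.93 ± 0.08). The plot of lineage genes by mouse shows the separation in each pair.

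**Figure D1:**
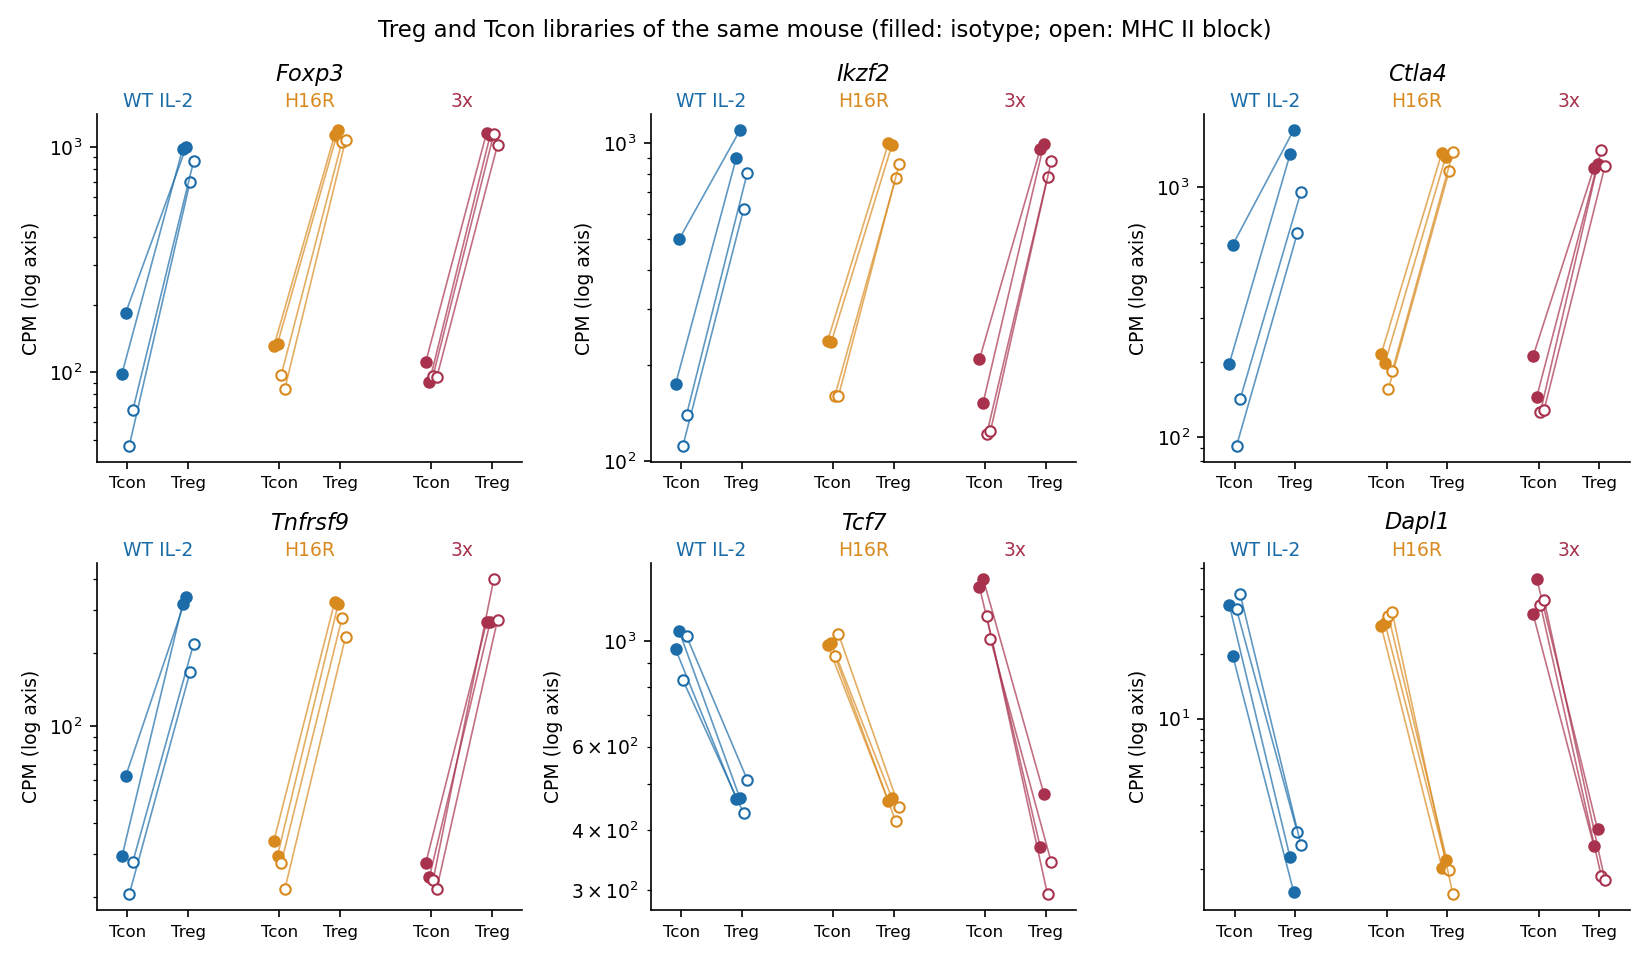
CPM on a log scale of genes that mark Tregs or Tcons, by molecule; each point is 1 library, filled for isotype and open for MHC II block, and a line joins the Treg and Tcon library of a mouse. Foxp3 lies between 699.5 and 1189 CPM in the Tregs and between 47.2 and 183 CPM in the Tcons, without overlap.

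For Foxp3 none of the 3 pairs of molecules passed the test over the 12 mice, but H16R and 3x minus WT IL-2 passed without isotype WT IL-2 mouse 1, at 0.23 and 0.39. Its Treg minus Tcon log2FC was 3.33 ± 0.12 for WT IL-2, 3.34 ± 0.12 for H16R and 3.50 ± 0.12 for 3x (SE, n = 4 each). The 95% interval of the difference was −0.33 to 0.36 for H16R minus WT IL-2, −0.17 to 0.52 for 3x minus WT IL-2 and −0.18 to 0.50 for 3x minus H16R. For Penk, which also missed the test in each pair, the intervals were −0.29 to 0.70, −0.65 to 0.33 and −0.86 to 0.14. Over the whole core list, 4 members of 25 differed upward for H16R minus WT IL-2 (5.07% of all genes did), 10 for 3x minus WT IL-2 (14.9% of all genes) and 4 for 3x minus H16R (9.12% of all genes), and none downward, where upward means a larger Treg minus Tcon log2FC with the first molecule. These counts moved with single mice of several groups. Without isotype WT IL-2 mouse 1 the count for H16R minus WT IL-2 was 16, and without both mice that stood apart it was 3 upward and 2 downward. For 3x minus WT IL-2 the count without both was 7 upward and 5 downward, with a median of 0.18 in place of 0.43. It was 5 or 6 upward without isotype 3x mouse 1, isotype 3x mouse 2, MHC II block 3x mouse 1 or MHC II block WT IL-2 mouse 1. For 3x minus H16R the count was 7 without either isotype WT IL-2 mouse, and 9 upward and 2 downward without both mice that stood apart. Over all alternatives the upward count ranged from 2 to 16 for H16R minus WT IL-2. It ranged from 5 to 15 for 3x minus WT IL-2 and from 2 to 9 for 3x minus H16R.

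The IL-2 receptor and its signalling targets were mostly higher in Tregs. Of 16 tested genes of the receptor and the JAK-STAT5 pathway, 13 were higher and 2 lower in Tregs over the 12 pairs, with a median log2FC of 0.65. Of all genes tested, 40.1% were higher and 42.2% lower. The beta chain Il2rb was higher by 1.08 ± 0.04 and the gamma chain Il2rg by 0.50 ± 0.03. Of the kinases and transcription factors below the receptor, Jak3 was higher by 0.81 ± 0.04, Stat5a by 0.38 ± 0.03 and Stat5b by 0.44 ± 0.03, while Jak1 had a log2FC of 0.03 ± 0.02 and was not called. The STAT5 targets and feedback inhibitors were further apart: Cish was higher by 2.27 ± 0.04, Socs2 by 1.82 ± 0.07, Socs3 by 1.16 ± 0.05, Socs1 by 1.03 ± 0.05 and the kinase Pim1 by 1.46 ± 0.04. Both members that were lower were Pim2, a kinase related to Pim1 (−1.03 ± 0.05), and Bcl2, which blocks mitochondrial cell death (−0.31 ± 0.05).

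The Treg minus Tcon differences of Socs2 and Il2ra were larger with 3x than with either other molecule. Socs2 was at 64.0, 60.9, 44.3 and 49.6 CPM in Tregs with WT IL-2, in the order isotype mouse 1, isotype mouse 2, MHC II block mouse 1 and MHC II block mouse 2, an order kept for all lists of 4 values below. It was at 78.9, 75.7, 90.1 and 88.8 CPM with H16R and at 133, 80.8, 112 and 86.2 CPM with 3x. The Tregs of every H16R and 3x mouse were above those of every WT IL-2 mouse, while the Tcons were at 15.5 to 33.6 CPM. The Treg minus Tcon log2FC was 1.23 ± 0.13, 1.74 ± 0.13 and 2.48 ± 0.13 for the 3 molecules, and 3x exceeded WT IL-2 by 1.25 ± 0.18 (edgeR adjusted p = 0.00196) and H16R by 0.73 ± 0.18 (edgeR adjusted p = 0.0242). H16R minus WT IL-2 was 0.52 ± 0.18 (edgeR adjusted p = 0.0857), a call lost under 14 of the alternatives tried, and 0.23 without both mice that stood apart. Il2ra was at 777, 568, 853 and 637 CPM in Tregs with 3x, above the 312 to 438 CPM with WT IL-2 and the 472 to 506 CPM with H16R. Its log2FC with 3x exceeded that with WT IL-2 by 0.79 ± 0.10 and that with H16R by 0.87 ± 0.10, whereas H16R minus WT IL-2 was −0.08 ± 0.10, with a 95% interval of −0.30 to 0.14. Cish, in contrast, lay between 2.15 and 2.50 with the 3 molecules.

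Molecules through which Tregs act on other cells were mostly higher in Tregs. Of 13 tested, 11 were higher and 2 lower, with a median log2FC of 1.35 over the 12 pairs. The anti-inflammatory cytokine Il10 was higher by 3.04 ± 0.11 and the tissue repair factor Areg by 3.18 ± 0.10. Lag3, a receptor for MHC II, was higher by 1.82 ± 0.10, Ebi3, a chain shared by IL-27 and IL-35, by 1.35 ± 0.05, and Entpd1, the ATP-degrading enzyme CD39, by 0.93 ± 0.03. The pair that was lower consisted of Prf1, the pore-forming perforin of cytotoxic cells (−1.73 ± 0.06), and Il12a (−2.75 ± 0.38), whose Treg median was 0.177 CPM. Regulators of effector Tregs were split as well. Of 16 tested, 12 were higher and 4 lower: Prdm1, which encodes Blimp-1, was higher by 1.35 ± 0.04, Batf by 1.43 ± 0.05, Maf by 1.29 ± 0.09, Gata3 by 1.10 ± 0.04 and Nfil3 by 1.94 ± 0.08, whereas Myb was lower (−2.22 ± 0.06), as were Zeb2 (−2.06 ± 0.13), Id2 (−0.59 ± 0.03) and Runx3 (−0.29 ± 0.04). Of 8 factors of helper lineages, 4 were higher and 3 lower, near the 40.1% and 42.2% of all genes tested, and nothing particular to the list is read from this. Among them Ahr, the aryl hydrocarbon receptor, was higher by 0.86 ± 0.03, and the Th1 and cytotoxic factors Tbx21 (−1.18 ± 0.06) and Eomes (−2.57 ± 0.06) were lower.

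Of 17 coreceptors and costimulatory receptors, 15 were higher and 2 lower, with a median of 1.36. The 4-1BB gene Tnfrsf9 was higher by 3.32 ± 0.08, Tigit by 2.53 ± 0.11, Icos by 1.36 ± 0.06 and Cd27 by 1.05 ± 0.04, and Cd160, a receptor of cytotoxic cells, was lower (−1.56 ± 0.05). Of 14 chemokine receptors, 8 were higher and 5 lower, against 40.1% and 42.2% of all genes tested. Ccr8, a receptor of tissue Tregs, was higher by 3.21 ± 0.10, Ccr4 by 2.07 ± 0.07 and Ccr6 by 1.97 ± 0.07. Lower in Tregs were the gut-homing receptor Ccr9 (−1.57 ± 0.05), Cx3cr1 (−1.40 ± 0.08), Cxcr6 (−1.34 ± 0.06) and the lymph node receptor Ccr7 (−0.92 ± 0.05). Genes that respond to the TCR were higher for the most part, 12 of 17, among them Nr4a1 (1.00 ± 0.03), Cd69 (0.90 ± 0.04) and Cd5 (0.87 ± 0.04). The growth regulator Myc (−0.41 ± 0.04), Egr1 (−0.13 ± 0.04) and the adhesion receptor Cd44 (−0.07 ± 0.02) were lower.

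Genes of Tcons and naive T cells were lower in Tregs, with exceptions. Of 20, 14 were lower and 5 higher (median −0.75). Pde3b, a phosphodiesterase that degrades cyclic AMP, was at 9.05 to 28.3 CPM in Tregs and at 101 to 160.1 CPM in Tcons, a log2FC of −3.19 ± 0.04. Dapl1 was lower by a log2FC of −3.86 ± 0.06, Igfbp4, which binds insulin-like growth factors, by −3.46 ± 0.05, the helper ligand Cd40lg by −1.68 ± 0.04 and the T cell factor Tcf7 by −1.29 ± 0.04. The IL-7 receptor chain Il7r was lower as well (−0.47 ± 0.04). Of 14 effector cytokines, 6 were higher and 5 lower, against 40.1% and 42.2% of all genes tested, so the counts show nothing particular to the list. Tcons held more Il2 (−1.57 ± 0.17) and Ifng (−0.99 ± 0.06), and Tregs held more Il13 (1.45 ± 0.08), Lta (0.64 ± 0.04) and Tnf (0.64 ± 0.05). Il22 was at 0.319 to 1.37 CPM in Tregs and at 0.0190 to 0.204 CPM in Tcons, low in both, with a log2FC of 3.12 ± 0.23.

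Several of the genes that fell furthest in Tregs encode granule proteins of granulocytes. The 10 genes with the greatest fall among those above a mean of 5 CPM were Epx, Elane, Prtn3, Mpo, Ctsg, Prss34, Gata2, Pdlim4, Rab44 and Chil3, of which Elane, Prtn3 and Ctsg encode proteases of neutrophil granules and Prss34 a protease of basophils and mast cells. None of the 10 is among the 6 neutrophil markers tested below. Mpo, the peroxidase of neutrophil granules, was at 0.298 to 3.72 CPM in Tregs and at 32.1 to 612 CPM in Tcons (−7.58 ± 0.14). The eosinophil peroxidase Epx was at 0 to 0.232 CPM in Tregs and at 0.579 to 38.6 CPM in Tcons, Elane, neutrophil elastase, at 0 to 0.744 and 4.26 to 86.8 CPM, and Gata2, a factor of mast cells and progenitors, at 0.0637 to 1.46 and 18.3 to 42.2 CPM. In each of these 4 genes all Tcons were above all Tregs. The progenitor marker Cd34 had a log2FC of −4.42 ± 0.07. In the same libraries, all 10 B cell markers, all 5 plasma cell markers, all 8 dendritic cell markers, all 6 neutrophil markers, all 8 NK cell markers and all 5 red cell markers tested were called lower in Tregs, and 7 of 10 myeloid markers were. Of all genes tested, 42.2% were called lower. In bulk RNA, fewer cells of a type and less RNA of a gene per cell cannot be told apart, here as in all results above. The 8 general T cell markers were called higher in Tregs, by a median of 0.40.

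The sums of the marker lists show how these genes were spread over mice. B cell markers summed to 39.9 to 778 CPM in Tregs and to 173 to 564 CPM in Tcons. The highest Treg value was that of MHC II block WT IL-2 mouse 1, and without the mice that stood apart the highest was 128.5 CPM. Myeloid markers summed to 21.2 to 841 CPM in Tregs, where the same library was again the highest and the others reached 84.8 CPM, and to 57.0 to 767 CPM in Tcons. The Tcon sums were 57.0 to 121 CPM with isotype antibody and 201 to 767 CPM with MHC II block, without overlap. NK cell markers summed to 22.7 to 119 CPM in Tregs and 178 to 360.3 CPM in Tcons, also without overlap, and plasma cell markers to 104 to 4227 and 404 to 3254 CPM. The NK receptor Klrk1 was at 8.03 to 45.1 CPM in Tregs and 68.6 to 128 CPM in Tcons. Prf1, Eomes, Cd160, Cx3cr1, Zeb2 and Ifng, named above as lower in Tregs, are also expressed by NK or myeloid cells. The part of other cells in these differences was not tested.

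**Figure D2:**
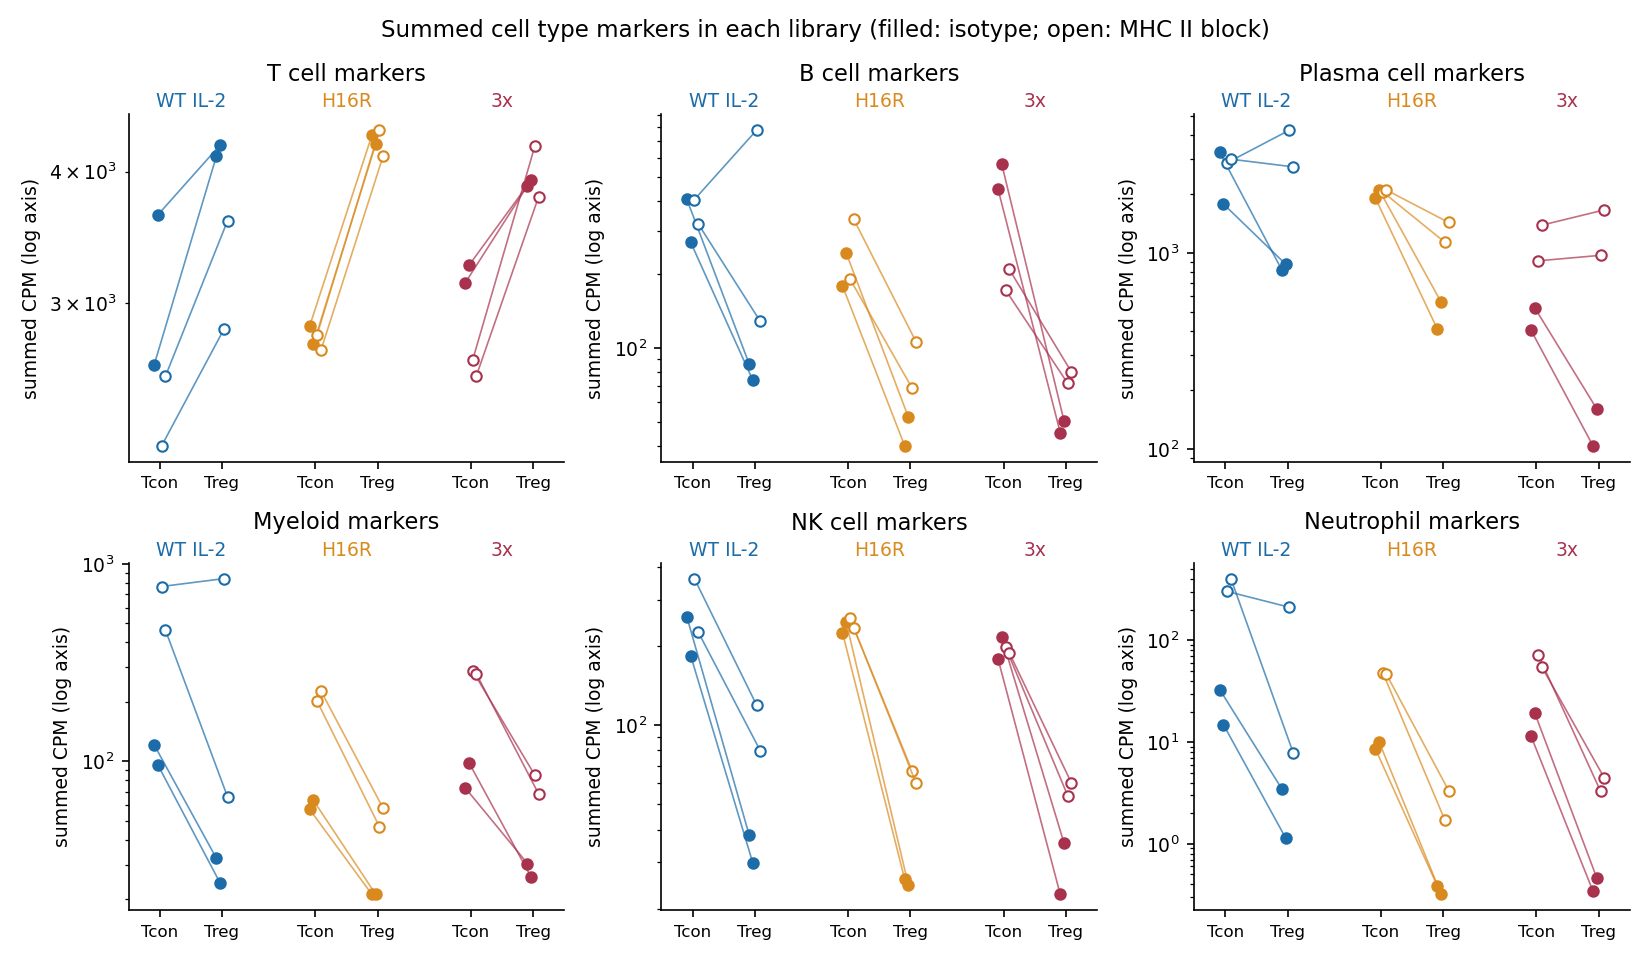
Summed CPM on a log scale of the marker lists of T cells and of other cell types in each library, Tregs beside Tcons by molecule, filled for isotype and open for MHC II block. The NK cell sums of all Tregs lie below those of all Tcons (22.7 to 119 CPM against 178 to 360.3 CPM), and 1 WT IL-2 Treg library stands above the others in B cell and myeloid markers.

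The direction of the cell cycle genes differed between the molecules. Cells that divide make mitotic genes, such as the kinase Cdk1, the cyclin Ccnb2, the topoisomerase Top2a and the ubiquitin enzyme Ube2c, just before division, and DNA replication genes, such as the Mcm helicase subunits, somewhat earlier. With WT IL-2 all 20 mitotic genes were lower in Tregs than in Tcons (median log2FC −0.61). With H16R 15 of 20 were lower and 1 higher (median −0.25), and with 3x all 20 were higher in Tregs (median 0.97). Of all genes tested, 35.2% were lower with WT IL-2, 37% lower and 35.7% higher with H16R, and 36.1% higher with 3x. Over the 12 pairs together the median of the mitotic genes was 0.00, with 8 genes higher and 4 lower. These 2 counts ranged from 5 to 10 higher and from 0 to 9 lower over the alternatives. The test of the difference between molecules passed for 20 of 20 genes for 3x minus WT IL-2 (median 1.51), for 20 of 20 for 3x minus H16R (median 1.19), and for 11 of 20 for H16R minus WT IL-2 (median 0.34). Of all genes tested, 14.9%, 9.12% and 5.07% passed upward in these pairs. The counts of 20 stayed at 20 in every alternative tried, apart from 19 with WT IL-2 without the mouse block and 19 for 3x minus H16R, also without it. The others moved: without isotype WT IL-2 mouse 2 the count for H16R minus WT IL-2 was 20, without the mouse block 0, and the count lower with H16R was 9 without isotype H16R mouse 1 or MHC II block H16R mouse 2, and 2 without the mouse block.

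Mitotic genes are known to share promoter elements, the CCAAT box bound by NF-Y and the cell cycle homology region (CHR) bound by the DREAM and MuvB complexes. The promoters of 16 of the 20 mitotic genes were found in the RefSeq tables for GRCm38.p6, and the motifs were searched after the values above had been seen. In the 250 bases before the start of transcription, a CCAAT box (CCAAT or ATTGG) was present in 14 of 16 mitotic promoters (87.5%), in 11 of 17 DNA replication promoters (64.7%) and in 33.8% of all 32851 promoters. A CHR element (TTTGAA or TTCGAA, or TTCAAA on the other strand, counted whether or not it overlapped a CCAAT box) was present in 8 of 16 (50%), 5 of 17 (29.4%) and 17.1%. These matches are a description of the letters and not of binding. The following stretches of 120 bases from RefSeq are shown because they belong to the 4 genes used as examples above, with both motifs in capitals on either strand, 5′ to 3′ on the strand of the gene.
Cdk1, chr10:69352913-69353032, minus strand: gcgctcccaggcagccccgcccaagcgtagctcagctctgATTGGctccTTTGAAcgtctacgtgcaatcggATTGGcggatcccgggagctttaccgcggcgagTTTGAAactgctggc
Top2a, chr11:99024190-99024309, minus strand: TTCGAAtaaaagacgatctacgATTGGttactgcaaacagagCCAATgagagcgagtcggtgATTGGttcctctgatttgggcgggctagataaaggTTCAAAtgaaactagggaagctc
Ube2c, chr2:164769809-164769928, plus strand: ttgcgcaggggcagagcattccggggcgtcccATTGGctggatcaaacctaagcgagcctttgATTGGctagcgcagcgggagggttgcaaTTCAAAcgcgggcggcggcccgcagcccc
Ccnb2, chr9:70421555-70421674, minus strand: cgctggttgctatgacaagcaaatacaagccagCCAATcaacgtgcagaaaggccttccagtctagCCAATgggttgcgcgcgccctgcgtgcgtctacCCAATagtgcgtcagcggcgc

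The values by mouse show the change of direction. Mki67, the Ki-67 proliferation antigen (chr7:135689784-135716361, minus strand, exons and introns of the gene), was at 267, 206, 308 and 229 CPM in Tregs and at 408, 227, 404 and 316 CPM in Tcons with WT IL-2. With H16R it was at 309, 290.1, 319.5 and 379 CPM in Tregs and at 281, 313, 302 and 299 CPM in Tcons. With 3x it was at 515, 335, 515 and 511 CPM in Tregs and at 155, 102, 267 and 236 CPM in Tcons. Each WT IL-2 mouse held more Mki67 in its Tcons, the H16R mice were divided, and with 3x all Tregs were above all Tcons. The log2FC was −0.40 ± 0.07 with WT IL-2, 0.11 ± 0.07 with H16R, which was not called, and 1.38 ± 0.08 with 3x. The differences were 0.51 ± 0.10 for H16R minus WT IL-2 (edgeR adjusted p = 0.0119), 1.78 ± 0.11 for 3x minus WT IL-2 (edgeR adjusted p = 1.11e-05) and 1.26 ± 0.11 for 3x minus H16R (edgeR adjusted p = 6.12e-05). Without both mice that stood apart they were 0.64, 1.91 and 1.27. The centromere protein gene Cenpf differed in each of the 3 pairs, from −0.30 ± 0.05 with WT IL-2 through 0.30 ± 0.05 with H16R to 1.66 ± 0.05 with 3x. Cdk1 went from −0.67 ± 0.09 through −0.39 ± 0.09 to 0.84 ± 0.09, and its difference between H16R and WT IL-2 did not pass, with an interval of 0.00 to 0.56.

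**Figure D3:**
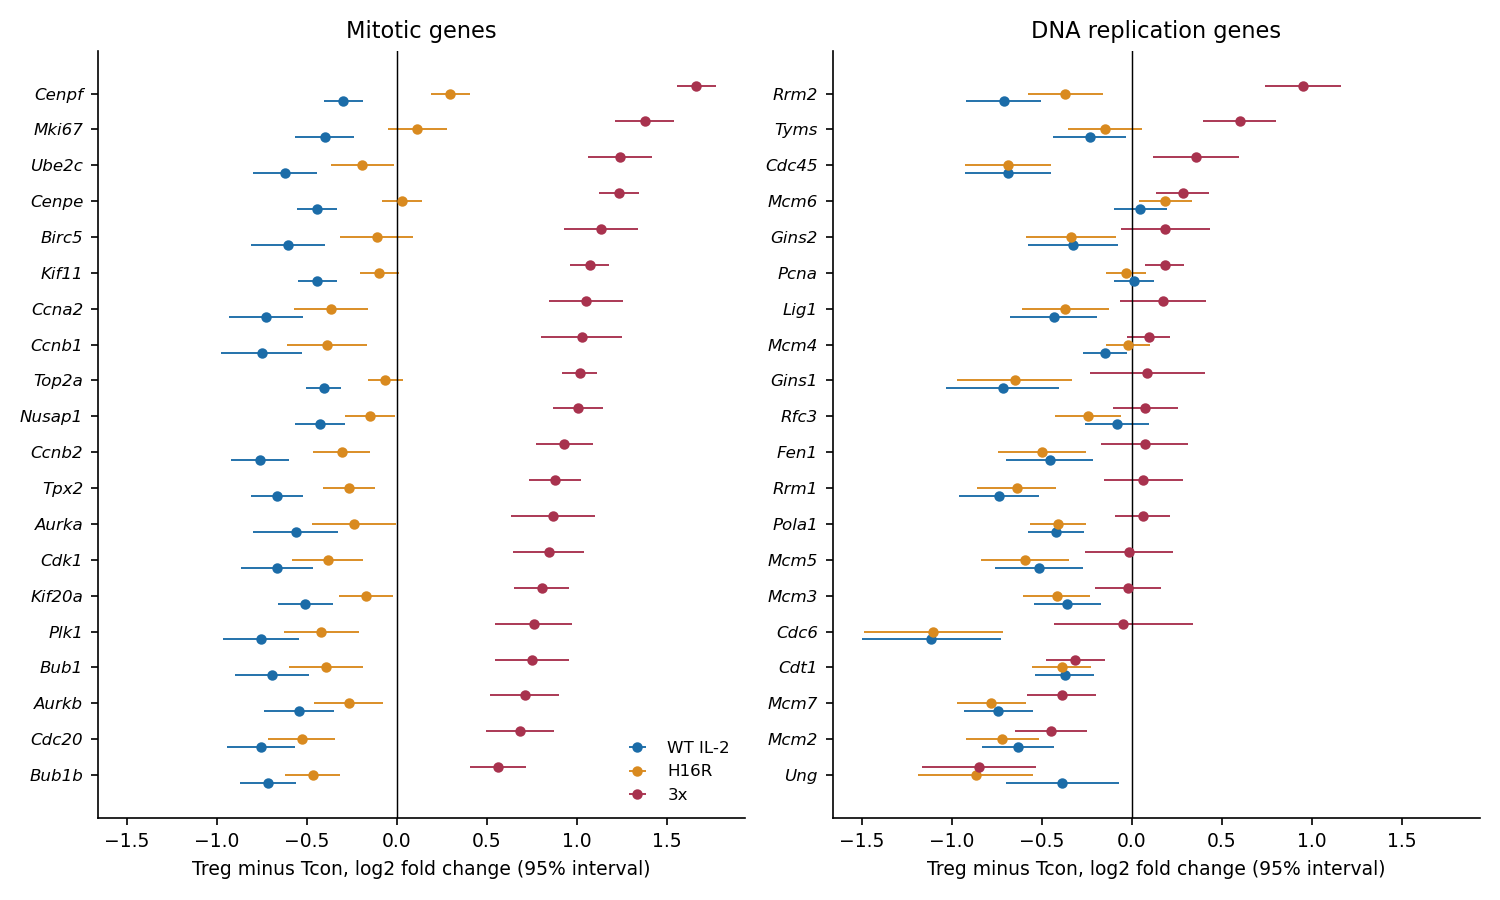
Treg minus Tcon log2 fold change of each mitotic and DNA replication gene with WT IL-2, H16R and 3x, with 95% intervals from edgeR (n = 4 mice a molecule). All 20 mitotic genes lie below 0 with WT IL-2 and above 0 with 3x.

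The summed levels were compared in each fraction. The summed CPM of the 20 mitotic genes was 990.5, 660.9, 890.7 and 734.4 in the Tregs and 1369, 713.6, 1423 and 1190 in the Tcons of the WT IL-2 mice. With H16R it was 992.5, 928.4, 1202 and 1184 in Tregs and 1062, 1068, 1214 and 1212 in Tcons. With 3x it was 1687, 1065, 1928 and 1643 in Tregs and 589.1, 392.6, 1086 and 1032 in Tcons. The Tregs of every 3x mouse were above those of every WT IL-2 mouse, and the 2 isotype 3x Tcons were the lowest of the 12 Tcons. Markers of other cells also differed between the Tcons of the molecules. Plasma cell markers summed to 1775 to 3254 CPM in Tcons for WT IL-2, to 1908 to 2101 CPM for H16R and to 404 to 1385 CPM for 3x, and every 3x Tcon library was below all those of the other molecules. Red cell markers summed to 17.6 to 272, 23.4 to 60.4 and 3.15 to 36.3 CPM in the same order, with overlap. The part of such cells in the mitotic and DNA replication results was not tested. In the 4 PBS mice the sums were 512.5 to 652.3 CPM in Tregs and 631.5 to 746.8 CPM in Tcons. Averaged over the list, the log2 difference was 1.44 and 1.34 in the isotype 3x mice and 0.70 and 0.43 in the MHC II block 3x mice, and it was −0.51, −0.12, −0.83 and −0.87 with WT IL-2 and −0.27, −0.25, −0.12 and −0.23 with H16R. The order of 3x above both other molecules held within the isotype mice and within the MHC II block mice.

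**Figure D4:**
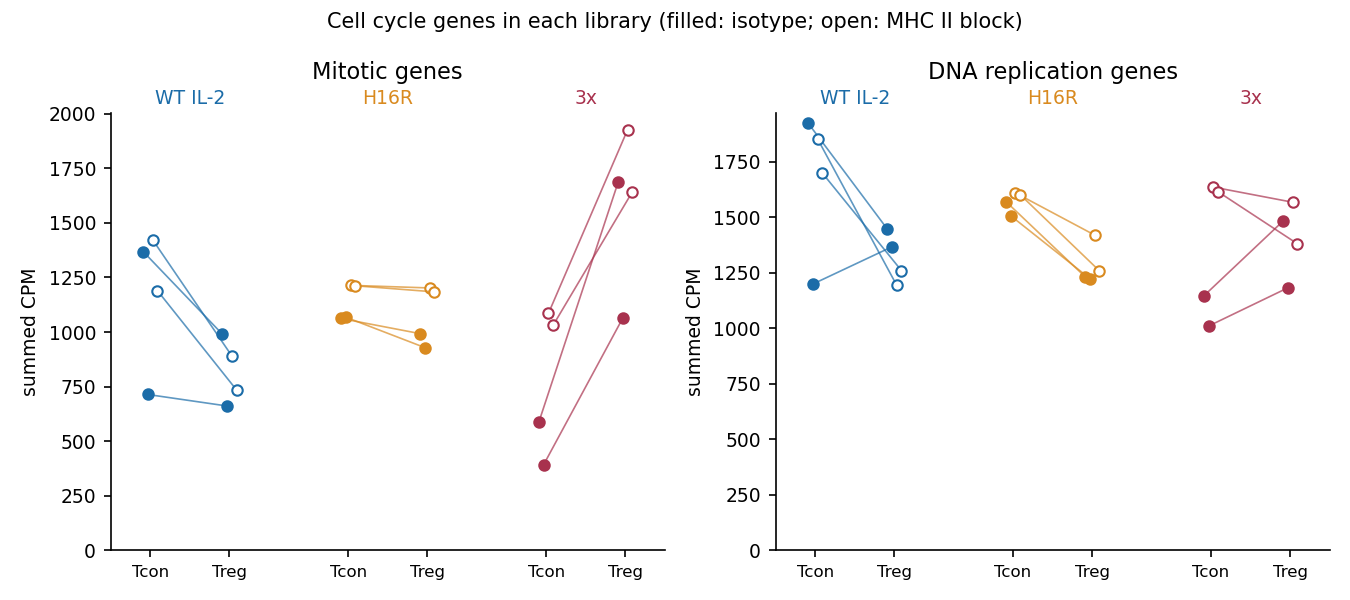
Summed CPM of the mitotic and of the DNA replication genes in the Tcon and Treg library of each mouse, by molecule, filled for isotype and open for MHC II block. With 3x the mitotic sum is higher in the Treg than in the Tcon library of all 4 mice, and with WT IL-2 it is lower in all 4.

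Fewer DNA replication genes than mitotic genes passed the test between molecules. Of 20 tested, 17 were lower in Tregs with WT IL-2 (median −0.43), 16 were lower and 1 higher with H16R (median −0.41), and 5 were higher and 4 lower with 3x (median 0.07), where 36.1% of all genes were higher and 37% lower. The difference passed upward for 14 genes for 3x minus WT IL-2 (median 0.49, 14.9% of all genes), for 14 for 3x minus H16R (median 0.50, 9.12% of all genes) and for 0 in either direction for H16R minus WT IL-2 (median −0.01). For the last pair 2 genes had an unadjusted edgeR p under 0.05, and DESeq2 and limma also called 0. The helicase subunit Mcm5 was at 104, 74.4, 122 and 101 CPM in Tregs and at 75.4, 70.0, 135 and 139.6 CPM in Tcons with 3x, and its log2FC was −0.02 ± 0.11 with 3x against −0.51 ± 0.11 with WT IL-2 and −0.59 ± 0.11 with H16R. Its difference for 3x minus WT IL-2 (edgeR adjusted p = 0.0654) was lost under 10 of the alternatives tried. The list counts depended on single mice. For 3x minus WT IL-2 the count was 9 without isotype H16R mouse 1, isotype H16R mouse 2, MHC II block WT IL-2 mouse 1 or MHC II block H16R mouse 2, and 6 without isotype 3x mouse 1 or MHC II block 3x mouse 1. For 3x minus H16R it was 7 without isotype H16R mouse 1, 9 without isotype H16R mouse 2, and 6 without isotype 3x mouse 1, MHC II block H16R mouse 2 or MHC II block 3x mouse 1. For H16R minus WT IL-2 it was 4 upward without isotype WT IL-2 mouse 2 and 7 downward without isotype WT IL-2 mouse 1. The upward counts were 16, 16 and 2 without both mice that stood apart. The count higher with 3x was 8 without either isotype WT IL-2 mouse.

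The 3 pairs of molecules were compared over all genes, all at the same dose and time, with p-values adjusted over genes and pairs together. A larger difference here means one shifted towards Tregs, and a smaller one is shifted towards Tcons. H16R gave a larger difference than WT IL-2 in 643 genes (5.07%) and smaller in 433 (3.41%). It was larger with 3x than with WT IL-2 in 1893 genes (14.9%) and smaller in 1689 (13.3%), and larger with 3x than with H16R in 1157 (9.12%) and smaller in 1085 (8.55%). Differences of at least 1 on the log2 scale were fewer, with 83, 446 and 208 genes in the 3 pairs. Without both mice that stood apart the totals were 952, 3454 and 3192 in place of 1076, 3582 and 2242, and 565, 2669 and 2224 of the genes first called were still called. Without the mouse block they were 441, 2265 and 1198, with DESeq2 649, 2479 and 1464, and with 1 Treg term per molecule over both antibody groups 442, 2418 and 1440. With p-values adjusted within the pair, H16R minus WT IL-2 had 316. Single mice moved them: for H16R minus WT IL-2 the total was 2346 without isotype WT IL-2 mouse 1 and at its lowest 483, without isotype H16R mouse 2. Lower totals for this pair were also found without isotype H16R mouse 1 (487), isotype 3x mouse 1 (634), MHC II block WT IL-2 mouse 1 (689), MHC II block H16R mouse 1 (566), MHC II block H16R mouse 2 (519) or MHC II block 3x mouse 1 (678). For 3x minus WT IL-2 it was 1843 without isotype 3x mouse 1 and 1842 without MHC II block 3x mouse 1. For 3x minus H16R it was 1203 and 1248 without isotype H16R mouse 1 or 2, 989 without isotype 3x mouse 1, 1130 without MHC II block H16R mouse 2 and 965 without MHC II block 3x mouse 1. Of the genes called for H16R minus WT IL-2, 59.8% were larger with H16R, but 36.8% with total counts without TMM, 41.9% with limma on FPKM and 37.0% without MHC II block WT IL-2 mouse 2. For 3x minus WT IL-2, 52.8% were larger with 3x, but 45.2% with total counts without TMM, 46.3% with limma on FPKM, 47.1% with all biotypes and 48.8% without MHC II block WT IL-2 mouse 2.

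Granzyme B, a protease that cytotoxic cells and activated Tregs deliver into target cells, was among the genes that differed in each pair. Gzmb (chr14:56258838-56262260, minus strand, exons and introns of the gene) was at 114, 56.3, 85.0 and 75.1 CPM in Tregs with WT IL-2, at 187, 168, 481 and 449 CPM with H16R and at 308, 174, 836 and 487 CPM with 3x. The Tcons were at 40.6 to 58.9, 50.8 to 105 and 33.8 to 118 CPM. The Tregs of every H16R and 3x mouse were above those of every WT IL-2 mouse. The Treg minus Tcon log2FC was 0.79 ± 0.14, 1.95 ± 0.14 and 2.69 ± 0.14, and the differences were 1.16 ± 0.19 for H16R minus WT IL-2 (edgeR adjusted p = 0.00413), 1.90 ± 0.19 for 3x minus WT IL-2 (edgeR adjusted p = 0.000221) and 0.74 ± 0.19 for 3x minus H16R (edgeR adjusted p = 0.0303). Without both mice that stood apart they were 0.87, 1.61 and 0.74, and the call for 3x minus H16R was lost under 4 of the alternatives tried.

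Amotl1, an angiomotin-like protein of cell junctions (chr9:14541966-14645056, minus strand, exons and introns of the gene), was the gene with the largest difference among those that differed in all 3 pairs. It was at 5.88, 4.56, 1.36 and 1.59 CPM in Tregs with WT IL-2, at 12.3, 11.4, 8.03 and 7.17 CPM with H16R and at 24.6, 19.4, 32.7 and 27.9 CPM with 3x, and these ranges did not overlap. The Tcons held 0.232 to 2.07 CPM. Its log2FC was 1.84 ± 0.22, 3.16 ± 0.19 and 4.88 ± 0.20, and 3x exceeded WT IL-2 by 3.04 ± 0.31 (edgeR adjusted p = 0.000264). Nos1, the neuronal nitric oxide synthase, went the same way, with 2.28 ± 0.16, 3.09 ± 0.16 and 4.29 ± 0.17, as did Frmd5 with 2.85 ± 0.12, 3.89 ± 0.12 and 4.45 ± 0.12. The call of Nos1 for H16R minus WT IL-2 was lost under 4 of the alternatives tried and that of Frmd5 for 3x minus H16R under 9. The interferon-inducible membrane protein Ifitm1 was at 17.0, 4.76, 132 and 61.2 CPM in Tregs with 3x and at 2.35, 2.00, 6.92 and 3.52 CPM with WT IL-2. Its log2FC was −2.44 ± 0.28, −1.11 ± 0.24 and 0.56 ± 0.24, and its spread between antibody groups was wide. Related Ifitm3 differed by 1.34 ± 0.24 for H16R minus WT IL-2 and by 2.27 ± 0.24 for 3x minus WT IL-2.

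Some suppressor molecules had a larger difference with the muteins than with WT IL-2, and receptors were counted in both directions. Of all genes tested, 5.07% were larger and 3.41% smaller for H16R minus WT IL-2, 14.9% and 13.3% for 3x minus WT IL-2, and 9.12% larger for 3x minus H16R. Of 13 suppressor molecules, 5 had a larger difference with H16R than with WT IL-2, 5 with 3x than with WT IL-2 and 4 with 3x than with H16R, and none a smaller. Without isotype WT IL-2 mouse 1 the first and the second count were 8 and 8. The 3 counts were 6, 5 and 6 without both mice that stood apart, with 1 smaller in each of the last 2 pairs. Lgals1, the galectin that binds T cell glycoproteins, went from 0.49 ± 0.10 through 1.10 ± 0.10 to 1.97 ± 0.10, and Entpd1 from 0.45 ± 0.05 through 0.83 ± 0.05 to 1.51 ± 0.05. Both differed in each pair, as did the regulator Prdm1, with 0.91 ± 0.06, 1.24 ± 0.06 and 1.91 ± 0.06. Il10 was at 178, 131, 68.7 and 92.6 CPM in Tregs with WT IL-2, at 207, 189.9, 219 and 253 CPM with H16R and at 104, 123, 218 and 179 CPM with 3x. In the isotype mice the Tregs with 3x thus held less Il10 than those with WT IL-2, and in the MHC II block mice more. The log2FC of Il10, 2.13 ± 0.18 with WT IL-2, was exceeded by 1.09 ± 0.25 with H16R and by 1.62 ± 0.26 with 3x, and 3x minus H16R did not pass, with an interval of −0.05 to 1.10. The inflammatory chemokine receptor Ccr2 had −0.10 ± 0.10, 0.66 ± 0.10 and 1.26 ± 0.10. Without both mice that stood apart, H16R minus WT IL-2 was 0.72 for Il10, 0.40 for Lgals1 in place of 0.61 and 0.49 for Ccr2 in place of 0.76, and each was still called. The coreceptor Havcr2, which encodes TIM-3, had 0.92 ± 0.11, 1.99 ± 0.11 and 2.30 ± 0.11, while Tnfrsf9 had 2.96 ± 0.13, 3.36 ± 0.14 and 3.63 ± 0.14. Of 17 coreceptors 4 had a larger and 3 a smaller difference with H16R than with WT IL-2, and 6 a larger and 3 a smaller with 3x than with WT IL-2, the smaller ones including Cd160 (−0.54 ± 0.12 and −0.45 ± 0.12). The larger coreceptors ranged from 1 to 11 in both comparisons over the alternatives, with 11 without isotype WT IL-2 mouse 1, and for 3x minus WT IL-2 with 1 or 2 without isotype 3x mouse 1 or 2, MHC II block WT IL-2 mouse 1 or MHC II block 3x mouse 1. For H16R minus WT IL-2 they were 1 or 2 when any of 9 other mice was left out, all but MHC II block WT IL-2 mouse 2 and MHC II block 3x mouse 2. Of 14 chemokine receptors 3 were larger and 2 smaller for H16R minus WT IL-2, and 3 larger and 3 smaller for 3x minus WT IL-2, among the latter Ccr7 (−0.81 ± 0.12). Over the alternatives 1 to 4 chemokine receptors were larger and 0 to 3 smaller for H16R minus WT IL-2. For 3x minus WT IL-2, 2 to 6 were larger and 1 to 4 smaller. The larger and smaller coreceptors were 2 and 4 for H16R minus WT IL-2 and 2 and 5 for 3x minus WT IL-2 without both mice that stood apart, and the chemokine receptors were then 3 and 1, and 5 and 2.

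The genes with the largest differences in each pair, among those above a mean of 5 CPM, were partly the same. For H16R minus WT IL-2 the largest rises were in Hdc, the enzyme that makes histamine (1.62 ± 0.33), Ifitm3, Ifitm1, Amotl1, Dsp and the chemokine Ccl3 (1.26 ± 0.14). For 3x minus WT IL-2 they were in Amotl1, Ifitm1, 1500009L16Rik (2.43 ± 0.32), Ifitm3, Nos1 and Dsp. For 3x minus H16R they were in 1500009L16Rik, Amotl1, Ifitm1, the beta globin Hbb-bs (1.59 ± 0.53), Depdc1a and the helicase Pif1. Amotl1 and Ifitm1 were in all 3 sets. The largest falls for 3x minus H16R were in Spp1, the secreted protein osteopontin (−1.37 ± 0.22), Il1r2, the calcium channel Cacna1d (−1.09 ± 0.19), Gm45234, Gm14085 and Fam129c. Hbb-bs belongs to the red cell markers, whose sums in the Tregs were 2.29 to 5.17 CPM with H16R and 0.764 to 6.76 CPM with 3x. In the Tcons they were 23.4 to 60.4 CPM for H16R and 3.15 to 36.3 CPM for 3x, and their part in the difference of Hbb-bs was not tested. Hbb-bs lost its call under 8 of the alternatives tried and Gm45234 under 11.

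Other genes had a smaller difference with 3x. Il1r2, a decoy receptor for IL-1, was higher in Tregs by 2.54 ± 0.13 for WT IL-2, 2.61 ± 0.15 for H16R and 1.51 ± 0.14 for 3x, and the follicular receptor Cxcr5 by 0.92 ± 0.08, 1.26 ± 0.08 and 0.39 ± 0.08. Of 20 Tcon and naive genes, 13 were further below Tcons with 3x than with WT IL-2 and 10 than with H16R, with 1 the other way in each, beside 13.3% and 8.55% of all genes called smaller in these pairs. The 13 became 8 without isotype 3x mouse 1 or MHC II block 3x mouse 1, and 7 without the mouse block. The 10 became 4 to 6 without the mouse block or without isotype H16R mouse 1 or 2, isotype 3x mouse 1, MHC II block H16R mouse 1 or MHC II block 3x mouse 1. The log2FC of Tcf7 was −1.04 ± 0.07, −1.14 ± 0.07 and −1.71 ± 0.07, and that of Pde3b −2.67 ± 0.07, −3.41 ± 0.08 and −3.50 ± 0.08. Bcl2 was at 135, 128, 150.4 and 146 CPM in Tregs and 110.0, 128, 128 and 131 CPM in Tcons with WT IL-2, where its log2FC of 0.17 ± 0.08 lost its call under 16 of the alternatives tried. It was lower in Tregs with H16R (−0.44 ± 0.08) and with 3x (−0.65 ± 0.08), and both differed from WT IL-2. B cell genes were among the largest differences, and the size of their median, not the number called, was smaller without the WT IL-2 Treg library rich in B cell markers. Of the 10 B cell markers 7 had a smaller difference with 3x than with WT IL-2, by a median of −1.54, and without MHC II block WT IL-2 mouse 1, the mouse of that library, 8 did, by a median of −0.77. Without both mice that stood apart the count was 7 and the median −0.74. The count of 7 ranged from 0, with a Treg term per molecule only, to 10. It was 4 without isotype WT IL-2 mouse 2, isotype H16R mouse 1 or 2 or MHC II block H16R mouse 2, 3 without MHC II block 3x mouse 2, and 2 without isotype 3x mouse 1 or 2 or MHC II block 3x mouse 1. Ms4a1, Blk, Siglecg, Spib and Scd1, all among the genes with the greatest fall for 3x minus WT IL-2, and Bcl11a, March1, Ms4a1, Tspan9, Mef2c and Tifab, the 6 with the greatest fall for H16R minus WT IL-2, stand beside these values, and the part of B cells in them was not tested. The calls of Scd1, Spib, Siglecg and Ms4a1 for 3x minus WT IL-2 were lost under 13, 12, 12 and 6 of the alternatives tried, and those of Ms4a1, March1 and Bcl11a for H16R minus WT IL-2 under 12, 10 and 9.

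**Figure D5:**
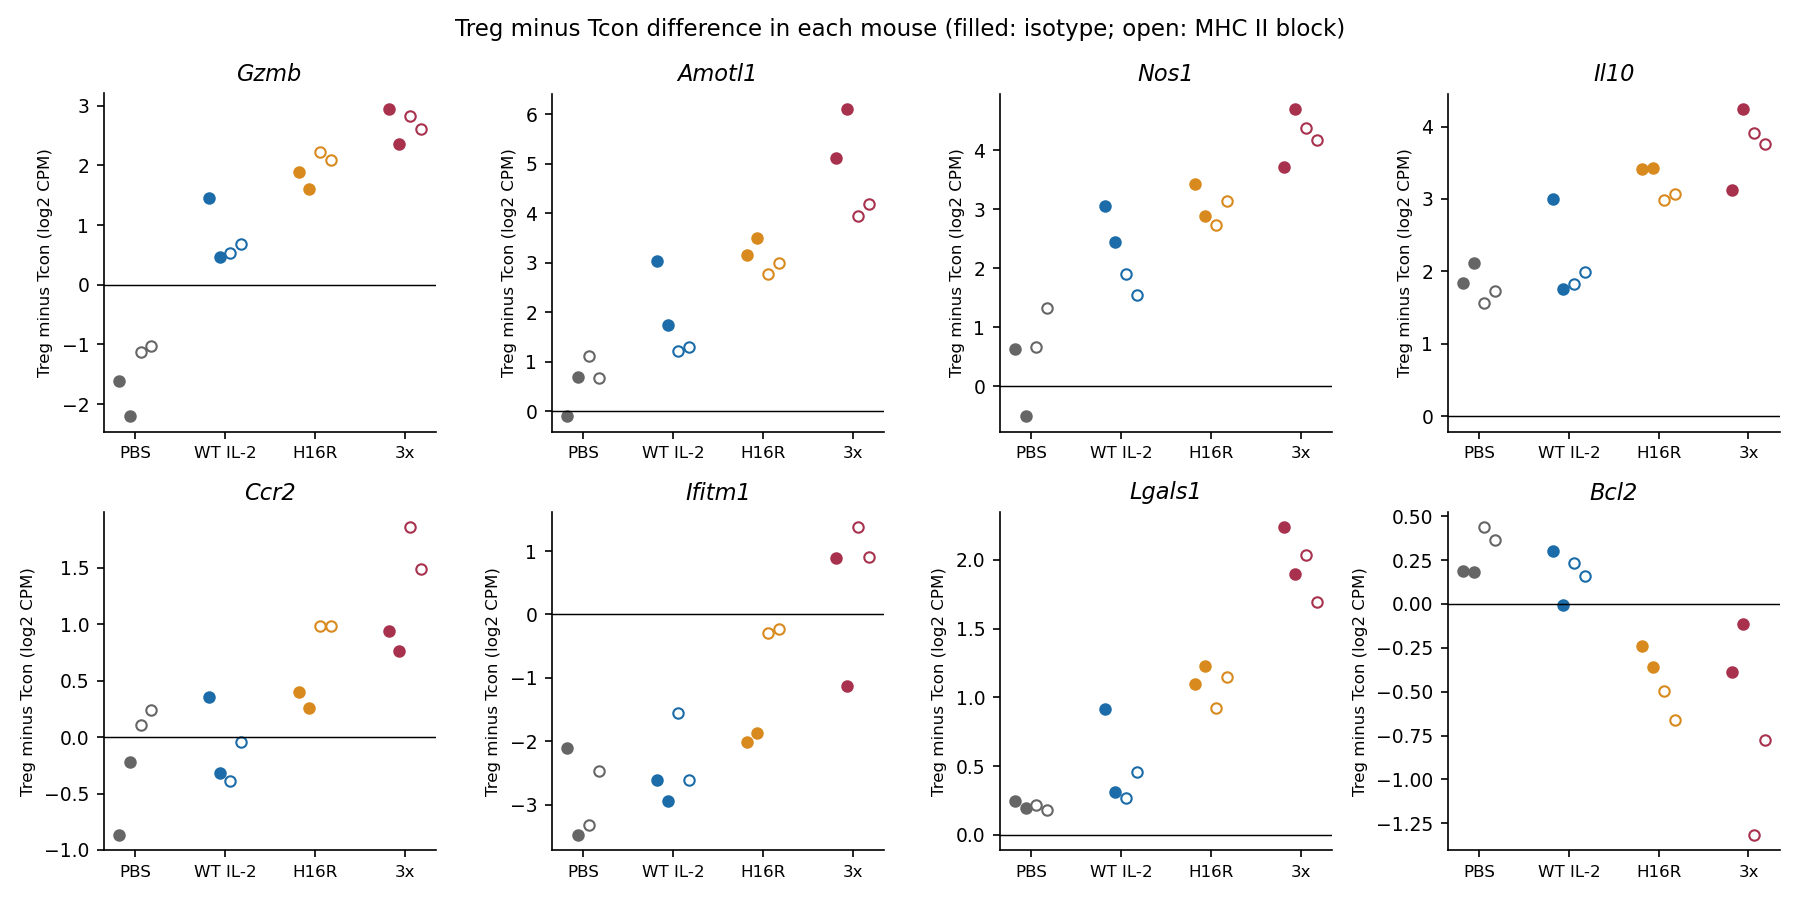
Treg minus Tcon difference in log2 CPM of Gzmb, Amotl1, Nos1, Il10, Ccr2, Ifitm1, Lgals1 and Bcl2 in each mouse, for PBS and the 3 molecules, filled for isotype and open for MHC II block. Gzmb lies below 0 in the 4 PBS mice and above 0 in all 12 IL-2-treated mice, and Bcl2 lies below 0 in all H16R and 3x mice.

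In 248 genes the difference was called with each of the 3 molecules but not with 1 sign. Of these, 183 were lower in Tregs with WT IL-2 and higher with 3x, and 64 the reverse. Counted without regard to H16R, 349 genes were lower with WT IL-2 and higher with 3x and 151 the reverse. The 248 genes were ranked by the smallest of their 3 absolute log2FC, and the 10 highest are named. Among these 10, Spc24, a kinetochore subunit, had −0.88 ± 0.11, −0.72 ± 0.11 and 0.59 ± 0.11, Cdc20, an activator of the anaphase-promoting complex, −0.76 ± 0.09, −0.53 ± 0.09 and 0.69 ± 0.09, and Espl1, the separase that splits sister chromatids, −0.84 ± 0.08, −0.56 ± 0.08 and 0.55 ± 0.08. The others were Padi4, Depdc1b, Ifitm1, Ankle1, Mtfr2, Lrr1 and Plekhh3. Padi4, an enzyme that turns arginine into citrulline, had another order, with −1.03 ± 0.31, 0.67 ± 0.30 and −0.88 ± 0.33. Its calls with WT IL-2, H16R and 3x were lost under 1, 6 and 3 of the alternatives tried, and the calls with 3x of Plekhh3 and Ifitm1 under 6 and 5. In 207 genes all 3 pairs of molecules differed, and those with the widest spread were Amotl1, Ifitm1, Nccrp1, Epha3, Ifitm3, Nqo1, Nos1, Cdkn3, Dsp and Cenpf. Nqo1, a quinone reductase, had −1.92 ± 0.15, −0.99 ± 0.14 and 0.34 ± 0.14, the last a call lost under 8 of the alternatives tried, and Dsp, the desmosome protein desmoplakin, 0.15 ± 0.12, 1.46 ± 0.11 and 2.12 ± 0.12.

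The overall distance between Treg and Tcon was also measured in each mouse, as the root mean square of the log2 CPM differences over all genes tested. It was 0.969 ± 0.129 for WT IL-2, 1.072 ± 0.040 for H16R and 1.057 ± 0.015 for 3x (SD, n = 4 each). The lowest values, 0.828 and 0.9, were those of MHC II block WT IL-2 mouse 1 and isotype WT IL-2 mouse 2, the mice that stood apart. H16R minus WT IL-2 was 0.104 (two-sided exact permutation p = 0.2571, adjusted over 3 pairs 0.4714), 3x minus WT IL-2 was 0.0883 (exact permutation p = 0.3143, adjusted 0.4714) and 3x minus H16R was −0.0156 (exact permutation p = 0.5143, adjusted 0.5143). With 4 mice against 4 the smallest p such a test can give is 0.0286. No difference in distance passed the test over all genes. Over the 500 genes of highest CPM both muteins passed against WT IL-2 (0.0896 and 0.1296, exact permutation, adjusted p = 0.0857 each), and over all genes without both mice that stood apart the values for H16R and 3x minus WT IL-2 were −0.0012 and −0.0168.

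Metabolic, interferon and survival genes were counted against the shares over all genes tested, 40.1% higher and 42.2% lower. Of 16 glycolysis enzymes and transporters, 9 were higher and 2 lower in Tregs (median 0.09), with the lactate dehydrogenase Ldha at 0.40 ± 0.03 and the glucose transporter Slc2a1 at 0.37 ± 0.03. Over the alternatives 7 to 9 of this list were higher and 2 to 6 lower. Of 17 sterol synthesis enzymes, 9 were higher and 3 lower (median 0.15), with 9 to 11 higher and 3 to 6 lower over the alternatives. Between molecules, 11 had a larger difference with 3x than with WT IL-2, 8 with 3x than with H16R and 3 with H16R than with WT IL-2, beside 14.9%, 9.12% and 5.07% of all genes. The 8 became 2 or 3 without isotype H16R mouse 1 or 2, isotype 3x mouse 1, MHC II block H16R mouse 2 or MHC II block 3x mouse 1, 5 without MHC II block H16R mouse 1, 2 without the mouse block and 3 with DESeq2. Of 20 interferon-stimulated genes, 9 were higher and 7 lower, close to the shares over all genes, among them Ifit1 (1.07 ± 0.09) and Isg15 (0.81 ± 0.04) against Mx1 (−0.46 ± 0.06) and Irf7 (−0.27 ± 0.03). Of 11 genes of the Bcl2 family, 9 were higher and 1 lower. The survival gene Bcl2l1 was higher by 0.98 ± 0.04 and the death genes Bid and Bak1 by 0.43 ± 0.03 and 0.29 ± 0.03, and Bcl2 was the member that was lower.

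The antibody groups were compared next, 6 mice with MHC II block against 6 with isotype, averaged over the 3 molecules. MHC II carries the peptides that the TCR of CD4 T cells sees. The difference was larger with block in 1017 genes (8.02%) and smaller in 982 (7.74%), and by at least 1 on the log2 scale in 278. The larger ones were 50.9% of the called genes here, 61.4% with DESeq2 size factors, 62.0% with DESeq2, 66.5% without MHC II block WT IL-2 mouse 2 and 45.0% with limma on FPKM, where the smaller ones were the majority. The total was 639 without the mouse block, 3519 without isotype WT IL-2 mouse 1, 780 without isotype H16R mouse 2, 1025 without isotype 3x mouse 1, 953 without MHC II block H16R mouse 2 and 1120 without MHC II block 3x mouse 2. All 20 mitotic genes had a negative value, 19 of them called (median −0.44), 17 without both mice that stood apart, 13 without isotype H16R mouse 2 or MHC II block H16R mouse 2, and 0 without the mouse block. DNA replication genes had 9 of 20 called smaller, with a range of 1 to 20 over mice left out in turn and 4 without both mice that stood apart. Mki67 did not pass (−0.18 ± 0.09, edgeR adjusted p = 0.215). Of the genes that respond to the TCR, 3 had a larger and 4 a smaller difference, the latter including Myc (−0.45 ± 0.08) and Cd69 (−0.36 ± 0.08). Over the alternatives the larger ones ranged from 0 to 7 and the smaller ones from 2 to 6, with 7 larger without isotype WT IL-2 mouse 1, and 0 larger without isotype H16R mouse 2 or isotype 3x mouse 1. The Treg core list had 6 larger and 0 smaller, 19 without isotype WT IL-2 mouse 1, 2 without isotype H16R mouse 2 and 3 without isotype 3x mouse 1, and Foxp3 differed by 0.44 ± 0.13, a call lost under 6 of the alternatives tried.

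Chemokine receptors and cytokines had larger differences with block. Of 14 chemokine receptors 9 were larger and 1 smaller (median 0.59). Cxcr6 was at 28.8 to 45.9 CPM in the isotype Tregs and at 48.1 to 147 CPM in the block Tregs, without overlap, against 119.9 to 229 CPM in all Tcons, and the difference was 1.32 ± 0.12. Of 14 cytokines 7 were larger and 1, Tnf, smaller (median 0.71), with Il21, a helper cytokine for B cells, at 1.40 ± 0.25, Csf2 at 1.22 ± 0.22, Il13 at 1.12 ± 0.17, Il4 at 0.97 ± 0.19, Ifng at 0.60 ± 0.11 and Tnf at −0.55 ± 0.10. The Th1 factor Tbx21 differed by 0.93 ± 0.12. Markers of other cells moved with the antibody too. B cell markers had 9 of 10 larger (median 1.89), with 5 without isotype H16R mouse 2 and 10 without both mice that stood apart (medians 1.91 and 1.40), plasma cell markers 5 of 5 (median 1.54) and NK cell markers 6 of 8 (median 1.18), among them Klrk1 (1.26 ± 0.09). The NK cell sums were 22.7 to 38.2 CPM in the isotype Tregs and 53.8 to 119 CPM in the block Tregs, without overlap, and the plasma cell sums 104 to 875 CPM and 971 to 4227 CPM. F13a1, a transglutaminase of clotting made by monocytes, gave the most negative value among the genes named by size (−3.23 ± 0.16), being at 2.32 to 7.91 CPM in isotype Tcons and 19.1 to 39.3 CPM in block Tcons, where the myeloid sums were also higher. Cxcl2, a chemokine for neutrophils (−2.05 ± 0.23), Havcr2 (−1.23 ± 0.13), Hk3, Gstm1 and Card9 followed. Large positive values were those of the iron exporter Slc40a1 (2.91 ± 0.92, lost under 11 alternatives), the calcium channel Cacna1e (2.35 ± 0.27), Scd1, Adamts14 and Cd79a. The part of other cells in these differences was not tested.

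Lastly the 12 IL-2-treated pairs were set against the 4 PBS pairs, in a fit of 16 pairs in which all 3 molecules share the same PBS mice. The Treg minus Tcon difference was larger with IL-2 in 3485 of 12844 genes (27.1%) and smaller in 3060 (23.8%), and by at least 1 on the log2 scale in 741. Larger ones were 53.2% of those called, 38.7% with total counts without TMM and 38.5% with limma on FPKM. Gzmb had a log2FC of −1.48 with PBS, where it was at 8.47 to 10.7 CPM in Tregs and 20.2 to 39.2 CPM in Tcons, and IL-2-treated minus PBS was 3.31 ± 0.18 (edgeR adjusted p = 1.99e-06). Foxp3 had 3.67 with PBS, and its difference of −0.26 ± 0.12 did not pass here but did under 11 of the alternatives tried. Il2ra had 4.30 with PBS, and IL-2-treated minus PBS was −0.92 ± 0.08. The Tcons held 18.0 to 19.4 CPM of it with PBS and 32.4 to 72.5 CPM with IL-2, without overlap. Of the Treg core list 13 were larger and 4 smaller, with 8 larger without isotype PBS mouse 1 or MHC II block PBS mouse 2. Amotl1 (2.68 ± 0.32), Nos1 (2.62 ± 0.25), Padi4 (2.88 ± 0.36), Vdr, the vitamin D receptor (2.53 ± 0.24), and Gcg, the glucagon precursor (3.35 ± 0.31), had the largest rises beside Gzmb among genes above a mean of 5 CPM. Gcg was at 0.0996 to 1.75 CPM in PBS Tregs and at 5.01 to 96.9 CPM in IL-2-treated Tregs. The largest falls were in Prg2, the major basic protein of eosinophils (−3.13 ± 0.25), Prtn3 (−2.10 ± 0.82), Mpo (−1.97 ± 0.49), Adgrg1 (−1.96 ± 0.17), Rab44 and Cd34. All 17 coreceptors passed, 13 larger and 4 smaller (median 0.53), and 14 mitotic genes were larger, or 4 without the mouse block, and 0 smaller (median 0.32), while 12 DNA replication genes were smaller. Plasma cell markers were smaller in 5 of 5, dendritic cell markers in 8 of 8 and red cell markers in 3 of 5 (0 without the mouse block, 1 without MHC II block PBS mouse 2 and 5 without MHC II block WT IL-2 mouse 1), and T cell markers larger in 7 of 8. NK cell markers summed to 88.9 to 176.6 CPM in PBS Tcons and to 178.3 to 360.3 CPM in IL-2-treated Tcons, without overlap. In Tregs they summed to 43.0 to 67.6 and 22.7 to 119 CPM, with overlap. Myeloid sums in Tcons were 64.0 to 224.9 CPM with PBS and 57.0 to 767 CPM with IL-2. The isotype PBS mouse 1 Treg library summed to 860 CPM of B cell markers, and the part of other cells was not tested.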

How the data were processed

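RNA was sequenced from poly(A) libraries made with a stranded kit. Per the methods of the study, reads were aligned with OSA in Omicsoft Array Suite to mouse genome B38 with a GENCODE gene model. The authors deposited expected counts per gene from an RSEM implementation, of which 72.6% of the nonzero values were whole, and FPKM, which divide them by library total and gene length. Expected counts of 53345 genes were rounded to whole numbers here, and 0 columns of other samples were present. Further deposited tables hold DESeq2 comparisons of Treg groups by the authors and were not used. Names of 51519 genes (96.6%) were matched to GENCODE vM21 (GRCm38), which gave protein-coding status and coordinates.

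Protein-coding genes with CPM above 0.5 in at least 4 fitted libraries were tested with edgeR 4.0.16 (R 4.3.3) by its quasi-likelihood test, with TMM factors, the mouse as block and a Treg term for each of the 6 groups of molecule and antibody, leaving 6 residual degrees of freedom (8 with the PBS pairs). Empty cells were not read as 0, and 7 protein-coding genes that met this minimum were left out because a fitted library had one. Calls were made at a Benjamini-Hochberg adjusted p under 0.1, and log2 CPM used a prior count of 2. Treg and Tcon libraries were paired by the mouse number in the labels. Deviations of same-numbered libraries from their group means correlated at 0.194 to 0.551 in the 6 groups. Replicates of a group differed by a chi-square of 3.82 to 83.07 per gene, above sampling noise, so none was counted as a copy. On simulated counts of the 12684 genes with 200 changed, the test recovered 91%, 100% and 100% of changes of 1.5-, 2- and 4-fold over the 12 pairs, and 65.5%, 85% and 99% for H16R minus WT IL-2. False calls were 7.4 to 8.7% of calls over the 12 pairs and 3.7 to 6.1% for H16R minus WT IL-2. The simulated mouse effect was shared by both libraries of a mouse, and the Treg minus Tcon difference did not vary between mice. The rates may therefore not hold for these data. Total expected counts had a median of 41.1 M in Tregs and 37.55 M in Tcons.

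Genes were named from 25 lists, of which 304 genes were tested, or by rules of size among called genes with a mean of at least 5 CPM, which gave 78 genes. Some genes that meet these rules are not reported here. The rules took the 10 largest rises and falls over the 12 pairs (same sign in all 12), the 6 largest in each molecule pair, in the antibody comparison and against PBS, and up to 10 genes each whose sign differed between molecules or that differed in all 3 pairs. The comparison, lists and rules were chosen with earlier results of these data known. Hbb-bs, Gbp2b and the Klra genes have close paralogs, and how shared reads were split leaves their values uncertain. Alternatives were DESeq2 1.42.0, limma 3.58.1 on log2(FPKM + 1), other scaling, filters, thinning, terms, no block, and each mouse left out. Leaving out both mice that stood apart was added after seeing the data. RefSeq promoters were searched with Python 3.11.15 over the 250 bases before the start.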

Additional observations from a re-analysis of the deposited data

Results flagged for a closer look

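The Treg minus Tcon log2 difference, averaged over each gene list, and the distance between Tregs and Tcons over all genes tested were examined for a mouse far from the other 3 of its molecule. Such a mouse was found in 8 of 78 groups of 4 mice, those of 25 lists and of the distance with each of the 3 molecules, where chance gives about 1 in 20, and the 8 were all found in lists. For the Treg core genes it was isotype WT IL-2 mouse 2 (1.56), whose Tcons held the most Foxp3, and the same mouse stood apart for DNA replication genes (0.107). MHC II block H16R mouse 2 stood apart for Tcon and naive genes (−1.007), isotype H16R mouse 2 for glycolysis (0.214) and isotype WT IL-2 mouse 1 for interferon-stimulated genes (0.235). Among markers of other cells, MHC II block WT IL-2 mouse 1 (0.333) and isotype 3x mouse 1 (−1.569) stood apart for myeloid genes and isotype 3x mouse 2 for red cell genes (−1.664).

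The difference between Tregs and Tcons itself differed between groups, by the edgeR test of the difference, in 1076 genes for H16R minus WT IL-2, 3582 for 3x minus WT IL-2, 2242 for 3x minus H16R, 1999 for MHC II block minus isotype and 6545 for IL-2-treated minus PBS.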

How the results depend on the processing

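Under the alternatives, 377 results for single genes gave 8687 values. Of these, 8360 kept their side of the threshold, 283 lost the call and 44 gained it. Direction changed in 0 values where the result or its alternative was called. Changes of direction where neither was called were not counted. Of the lost calls, 42 came without the mouse block and 164 with 1 mouse left out. Without the mouse block the counts of called genes were 441 for H16R minus WT IL-2, 2265 for 3x minus WT IL-2, 1198 for 3x minus H16R and 639 for MHC II block minus isotype, and the block moved no other count of called genes by over 1.5 times. With an absolute log2FC of at least 1 the counts were 2139 over the 12 pairs, 1906 with WT IL-2, 2275 with H16R, 2335 with 3x, 83, 446 and 208 for the molecule pairs in the order given, 278 for the antibody and 741 against PBS. DESeq2 called 649 genes for H16R minus WT IL-2 and 1464 for 3x minus H16R, and a Treg term per molecule only called 442 and 1440. Adjustment within the pair called 316 for H16R minus WT IL-2. This adjustment and the fold threshold were applied to the counts over all genes only. They were not among the alternatives tried for single genes and gene lists. With each mouse left out in turn the counts ranged from 10074 to 10478 over the 12 pairs, 6950 to 8530 with WT IL-2, 8093 to 9404 with H16R, 8275 to 9539 with 3x, 483 to 2346, 1842 to 4142 and 965 to 3131 for the molecule pairs, 780 to 3519 for the antibody and 5050 to 7132 against PBS. The share of larger differences with block was 61.3% with no filter on low counts and 61.7% after thinning. It was 61.0%, 64.6% and 63.5% without isotype WT IL-2 mouse 2, MHC II block H16R mouse 2 or MHC II block 3x mouse 2. The Treg to Tcon distance over the 500 genes of highest CPM differed by 0.0896, 0.1296 and 0.04 for H16R minus WT IL-2, 3x minus WT IL-2 and 3x minus H16R. The first and the second passed (exact permutation, adjusted p = 0.0857 each), and the last changed sign, as it did with the median absolute difference (0.0188). Without both mice that stood apart the first and the second changed sign (−0.0012 and −0.0168). With each mouse left out in turn the differences in distance were 0.0568 to 0.1531, 0.0412 to 0.1375 and −0.0311 to −0.0021. Depth limits the genes near 0 CPM, such as Epx and Il12a in Tregs. Beyond fewer mice or a fold threshold, the cause of these moves was not tested.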
